A study of Mus musculus with 10 samples.

Results

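Fatty acid oxidation and peroxisome genes, 34 named genes among the 28987 gene IDs measured, were followed across ileal crypt libraries of mice with and without epithelial Stat5. The genes were taken by name from a list of the enzymes, transporters and regulators of the pathway, by a rule that uses no measured value, though with earlier results of these data known. All 34 were found, and all 34 were among the 13056 genes that passed a filter of at least 1 TPM (the share of all transcripts that come from a gene, adjusted for its length) in at least 2 libraries.

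Long-chain fatty acids are tied to coenzyme A by acyl-CoA synthetases, carried into mitochondria as carnitine esters and shortened there by a repeating cycle of dehydrogenation, hydration, dehydrogenation and thiolysis. Peroxisomes run a parallel cycle on very long, branched and unsaturated chains, produce hydrogen peroxide that catalase removes, and pass shortened chains back to mitochondria. Many of these genes are targets of PPAR alpha, the fatty acid receptor encoded by Ppara, and in the intestine they are best known from absorptive enterocytes, which also take up dietary fat.

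The groups were KO (VilCreER;Stat5, STAT5IEC-/-, n = 2 libraries), OE (VilCreER;icS5, STAT5IEC+++, n = 5) and Ctrl (VilCreER;Stat5, STAT5+/+, n = 3), all labelled C57Bl6, male and 12 weeks old. All 3 carry the inducible VilCreER transgene, in which the villin promoter drives Cre in the intestinal epithelium. The labels do not spell out icS5, and controls of that line were not analysed here, so for OE a line difference and the Stat5 transgene cannot be told apart. Ileal crypts were shaken off in 10 mM EDTA at 37 °C for 30 minutes, total RNA was sequenced single-end, and the labels name no animals. The p-values therefore measure only the spread between libraries, which may be technical. Levels below are scaled TPM, the deposited TPM divided by 1 factor per library so that most genes have like values across libraries. Read numbers cannot be had from TPM, and the depth behind each value is unknown.

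Stat5a plus Stat5b summed to 0.766 to 1.12 scaled TPM over the KO, 3.04 to 8.34 over the OE and 2.04 to 4.35 over the Ctrl libraries, and OE 1 lay within the Ctrl range at 3.04. Ctrl 2 stood apart: transcripts encoded in mitochondria made up 83.7% of its TPM, against 43.3% to 57.0% in the other 9 libraries, and it had 8263 genes at 1 TPM or more, against 11050 to 11932. Its factor was 0.295 against 0.831 to 1.31 elsewhere, so its scaled values were raised most. Y-linked transcripts were near 0 in OE 3, OE 4 and Ctrl 3, which are labelled male. The 8 epithelial markers summed to between 3942 and 6917 scaled TPM in every library. The sum of the 12 fibroblast and muscle markers, of which 7 passed the filter, ranged from 24.6 to 78.4 in KO, 15.2 to 111 in OE and 12.6 to 23.9 in Ctrl. The sum of the 10 macrophage and dendritic cell markers ranged from 151 to 252 in KO, 72.6 to 305 in OE and 51.4 to 87.8 in Ctrl. The 9 T cell markers summed to between 25 and 66.6 in KO, 78.1 and 327 in OE and 43.0 and 155 in Ctrl, and 7 B and plasma cell markers to between 11.9 and 30.0 in KO, 21.7 and 193 in OE and 4.82 and 30.6 in Ctrl. No marker of these 4 lists was at 0 in every library, and the part of these cells in the results below was not tested. In bulk RNA, fewer cells of a type and less RNA per cell cannot be told apart.

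None of the 34 genes passed an adjusted p of 0.05 in limma in any of the 3 comparisons (KO with Ctrl, OE with Ctrl, and OE with KO). In each comparison 0 of 13056 genes (0%) passed, so the genes named below are those with the smallest p and carry no call. At an unadjusted p under 0.05, KO against Ctrl had 3 of the 34 genes, all lower in KO (Cpt2, Decr2 and Acsl1), where 1.52% of all genes tested were lower and 1.94% higher (3.46% either way). OE against Ctrl had 4, all lower in OE (Decr2, Cpt2, Eci2 and Acaa2), beside 2.31% of all genes lower and 3.79% higher (6.1% either way). OE against KO had 1, Acaa2, lower in OE, beside 1.33% of all genes lower and 1.62% higher (2.95% either way).

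The median log2 difference of the 34 genes was -0.36 for KO against Ctrl, beside 0.04 over all genes tested, with 22 genes below 0. It was -0.44 for OE against Ctrl, beside 0.02, with 28 genes below 0. Both medians rested on Ctrl 2: without it they were 0.10 for KO against Ctrl, with 15 genes below 0, and -0.08 for OE against Ctrl, with 24 below 0. On TPM as deposited, with no scaling, they were 0.17 and 0.07, where the median of all genes itself moved to 0.38 and 0.36. The median of the 34 genes was thus below that of all genes on both scales with all libraries, but not without Ctrl 2 for KO against Ctrl, where all genes had a median of 0.0061. For OE against KO the median was -0.16, beside -0.00062 over all genes, and it was 0.0067 without KO 1.

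**Figure D1:**
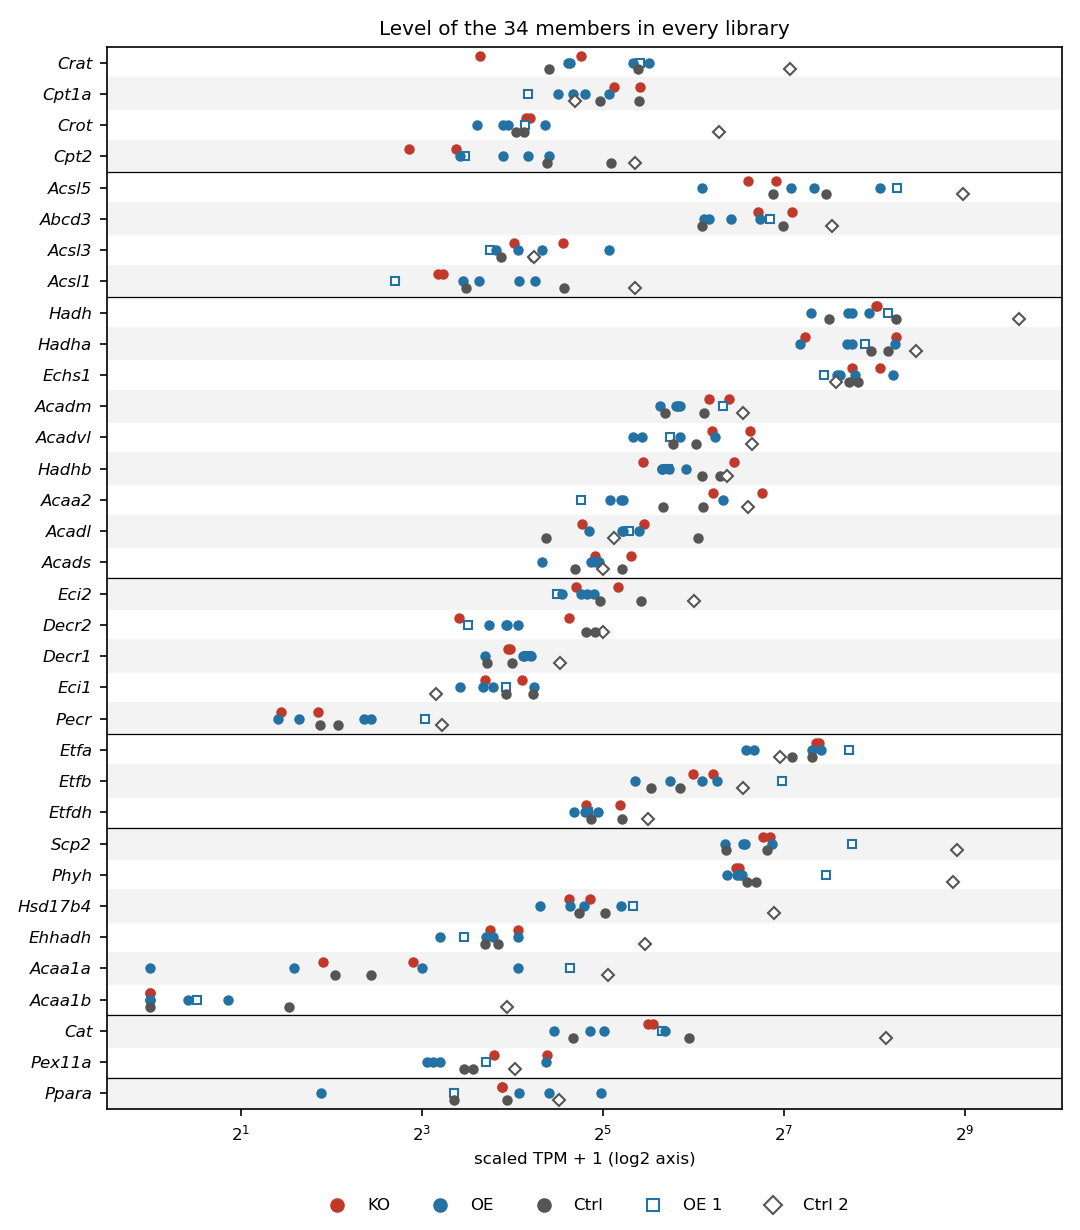
Scaled TPM + 1 of the 34 genes on a log2 axis, 1 point per library, with KO, OE and Ctrl from top to bottom within each gene and role groups parted by lines. Ctrl 2 (open diamond) was the highest library for 22 of the 34 genes, and the KO points of Cpt2 lie left of all OE and Ctrl points.

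Cpt1a and Cpt2 encode the 2 carnitine palmitoyltransferases of the mitochondrial import route: Cpt1a, on the outer membrane, makes the carnitine ester and sets the pace of import, and Cpt2, on the inner membrane, returns the chain to coenzyme A. Cpt2 was the gene of the 34 with the smallest p in KO against Ctrl. It was at 9.40 and 6.27 scaled TPM in KO 1 and 2, at 10.1, 13.9, 20.2, 17.1 and 9.75 in OE 1 to 5, and at 20, 40.1 and 33.1 in Ctrl 1 to 3. On this scale every KO library was below every OE and Ctrl library, though KO 1 was close to OE 5, while OE 3 reached just above Ctrl 1. On TPM as deposited KO 1 (11.4) was above OE 1 (8.40) and OE 5 (10.9). Both KO libraries stayed below Ctrl there, KO 1 being close to Ctrl 2 (11.8). Cpt2 averaged 7.84 ± 2.22 in KO (SD, n = 2), 14.2 ± 4.50 in OE (n = 5) and 31.1 ± 10.2 in Ctrl (n = 3). The log2 difference of KO from Ctrl was -1.83 (95% interval -2.70 to -0.96, unadjusted p = 0.000806, adjusted p = 0.943 in limma). It was -1.62 without Ctrl 2, and over the alternatives tried it lay between -2.11 and -1.33, with adjusted p between 0.536 and 1. The log2 difference of OE from Ctrl was -1.07 (-1.77 to -0.38, adjusted p = 0.755) and -0.58 on TPM as deposited, and that of OE from KO was 0.75 (-0.04 to 1.55, adjusted p = 1).

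Cpt1a did not follow Cpt2. It was at 41.7 and 33.8 scaled TPM in KO, at 17.1, 27.0, 32.7, 24.5 and 21.7 in OE 1 to 5, and at 30.4, 24.9 and 41.3 in Ctrl 1 to 3. Both KO libraries were above all 5 OE libraries on this scale, though KO 2 was close to OE 3, and both groups overlapped Ctrl. On TPM as deposited OE 3 (38.3) was above KO 2 (35.4). The log2 difference of OE from KO was -0.62 (-1.27 to 0.02, adjusted p = 1).

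The ratio of Cpt2 to Cpt1a within a library does not depend on any scaling between libraries. It was 0.225 and 0.185 in KO 1 and 2, 0.591, 0.513, 0.619, 0.696 and 0.449 in OE 1 to 5, and 0.657, 1.61 and 0.802 in Ctrl 1 to 3. The KO ratios were below those of all 8 other libraries. The log2 ratio was 2.21 lower in KO than in Ctrl (log2 difference -2.21), with an exact two-sided permutation p of 0.1, the smallest that 2 against 3 libraries allow, so this design cannot reach 0.05. For OE against KO the log2 difference was 1.47, with an exact p of 0.0476, also the smallest possible. For OE against Ctrl it was -0.74, with an exact p of 0.0357 and overlapping groups. Of 21 such tests (7 pairs of genes in 3 comparisons), 0 passed after Benjamini-Hochberg adjustment, and the adjusted p of these 3 were 0.42, 0.333 and 0.333. Without Ctrl 2 the KO against Ctrl difference of the log2 ratio was -1.83.

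The promoters of these genes are shown because STAT5 binds the spaced palindrome TTCNNNGAA, and because the genes are those the results turn on. Each line gives 250 bases before and 50 after the RefSeq start, read 5′ to 3′ on the gene's strand (GRCm38.p6), with any TTCNNNGAA in capitals. The Cpt2 window is chr4:107923540-107923839 on the minus strand, Cpt1a chr19:3323051-3323350 on the plus strand, Decr2 chr17:26090115-26090414 on the minus strand and Hadhb chr5:30155003-30155302 on the plus strand.
Cpt2: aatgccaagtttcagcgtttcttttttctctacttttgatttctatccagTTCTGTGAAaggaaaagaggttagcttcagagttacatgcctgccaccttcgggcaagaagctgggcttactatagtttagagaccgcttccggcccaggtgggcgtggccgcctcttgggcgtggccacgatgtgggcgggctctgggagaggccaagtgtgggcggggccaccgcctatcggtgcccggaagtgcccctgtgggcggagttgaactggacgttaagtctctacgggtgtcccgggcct
Cpt1a: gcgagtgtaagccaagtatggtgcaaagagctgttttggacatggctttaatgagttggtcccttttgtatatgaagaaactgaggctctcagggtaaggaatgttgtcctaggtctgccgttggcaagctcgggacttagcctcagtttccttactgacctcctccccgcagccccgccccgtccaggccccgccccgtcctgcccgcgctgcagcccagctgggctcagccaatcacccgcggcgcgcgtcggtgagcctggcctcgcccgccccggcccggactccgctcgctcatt
Decr2: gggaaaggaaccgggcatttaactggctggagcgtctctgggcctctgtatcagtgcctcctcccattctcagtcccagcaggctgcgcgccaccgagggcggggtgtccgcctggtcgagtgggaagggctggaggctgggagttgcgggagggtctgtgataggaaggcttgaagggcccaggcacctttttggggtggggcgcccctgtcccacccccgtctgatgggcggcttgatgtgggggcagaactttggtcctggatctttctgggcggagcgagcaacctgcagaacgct
Hadhb: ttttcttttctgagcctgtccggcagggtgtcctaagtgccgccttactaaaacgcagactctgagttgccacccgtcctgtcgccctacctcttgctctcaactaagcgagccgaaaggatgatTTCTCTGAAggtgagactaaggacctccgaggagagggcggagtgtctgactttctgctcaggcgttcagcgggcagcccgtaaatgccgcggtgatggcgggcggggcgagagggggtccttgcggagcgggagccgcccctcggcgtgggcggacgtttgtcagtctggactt

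The Cpt2 window held 1 match, TTCTGTGAA, whose first base lies at -200 relative to the start, and the Cpt1a and Decr2 windows held none. RefSeq windows were at hand for 30 of the 34 genes (Crat, Hsd17b4, Decr1 and Acaa2 are named only). The palindrome, which reads as itself on both strands, was in 3 of the 30 (10.0%: Cpt2, Hadha and Hadhb), against 8.3% of all 32851 promoter windows, a share near the background. The first share counts genes with a match in any of their windows (32 windows for 30 genes), and the second counts single windows. Hadha and Hadhb start 273 bases apart on opposite strands and their windows share 228 bases, so their matches are the same 9 bases, chr5:30155128-30155136. The exact PPAR direct repeat, AGGTCA given 2 times in a row with 1 free base between them and searched on both strands, was in 0 of the 30 and in 0.0396% of all windows. With the unit loosened to AGGNCA it was again in 0 of the 30, against 0.381% of all windows. A match is a description of letters and not a shown binding site.

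Crat and Crot encode the carnitine acetyltransferase of mitochondria and peroxisomes and the peroxisomal carnitine octanoyltransferase, which prepare short and medium chains for transfer. Crat was at 26.1 and 11.5 scaled TPM in KO, 41.5, 39.4, 23.9, 44.5 and 23.6 in OE 1 to 5, and 20.2, 134 and 40.9 in Ctrl 1 to 3. KO overlapped both other groups, and Ctrl 2 was far above every other library. The log2 difference of KO from Ctrl was -1.42 (-2.90 to 0.06, adjusted p = 0.943) and -0.69 without Ctrl 2. Dolpp1, on the opposite strand, overlaps Crat and had a like level (mean 32.8 against 35.4 TPM), and since the counting is not stated to use strand, reads of both cannot be told apart. Crot was at 16.7 and 17.3 in KO, 16.7, 14, 19.6, 14.4 and 11.2 in OE 1 to 5, and 16.5, 76.8 and 15.4 in Ctrl 1 to 3. Outside Ctrl 2 it lay between 11.2 and 19.6.

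Activation and import genes were also high in Ctrl 2 on scaled TPM, with 1 exception. Acsl1, Acsl3 and Acsl5 encode long-chain acyl-CoA synthetases, and Acsl5 is the one best known in enterocytes. Acsl1 was at 8.43 and 8.10 scaled TPM in KO, 5.54, 15.8, 18.1, 9.99 and 11.4 in OE 1 to 5, and 10.2, 40.1 and 22.8 in Ctrl 1 to 3. Both KO libraries were below all 3 Ctrl libraries, with a log2 difference of -1.26 (-2.49 to -0.04, adjusted p = 0.943) that was -0.82 without Ctrl 2 and -0.61 with libraries weighted by their spread, while OE overlapped both groups. Acsl5 was at 96.8 and 119.7 in KO, 305, 161, 134, 67.7 and 267 in OE 1 to 5, and 176, 505 and 117 in Ctrl 1 to 3, and the groups overlapped, with a wide spread within OE. Its opposite-strand neighbour Zdhhc6 was far lower (mean 12.2 against 176 TPM). The exception was Acsl3, at 19.0 ± 5.25 in KO, 18.6 ± 8.19 in OE and 16.5 ± 2.47 in Ctrl. Abcd3, the peroxisomal membrane transporter of acyl chains, was at 120.0 ± 21.9 in KO, 89.0 ± 20.5 in OE and 126 ± 58.5 in Ctrl. On TPM as deposited Ctrl 2 was the lowest library for Abcd3 (54.3) and Acsl3 (5.29). It lay within the range of the others for Acsl1 (11.8) and Acsl5 (149).

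The 9 enzymes of the mitochondrial cycle included Hadh and Hadha, which had the highest mean levels of the 34 genes. Their median log2 difference was 0.14 in KO against Ctrl, -0.44 in OE against Ctrl and -0.25 in OE against KO, and 0 passed in any comparison. Without Ctrl 2 the first was 0.16 and the second -0.15. The acyl-CoA dehydrogenases take the first step, each for its own chain length, in the order Acadvl (very long), Acadl (long), Acadm (medium) and Acads (short). Acadvl was at 72.8 and 98.3 scaled TPM in KO, 52.4, 39.3, 74.7, 42.3 and 56.8 in OE 1 to 5, and 54.0, 99.8 and 64.7 in Ctrl 1 to 3. OE 3 reached just above KO 1, and the log2 difference of OE from KO was -0.70 (-1.41 to 0.01, adjusted p = 1). Acadm was at 71.4 and 83.2 in KO, 79.3, 55.0, 57.0, 48.6 and 56.0 in OE 1 to 5, and 68.7, 92.5 and 50.6 in Ctrl 1 to 3. Only OE 1 of the OE libraries reached the KO level. Acadl averaged 34.5 ± 11.7 in KO, 35.9 ± 4.99 in OE and 39.7 ± 23.4 in Ctrl, and Acads 33.9 ± 6.77, 27.3 ± 4.59 and 30.7 ± 5.61 in KO, OE and Ctrl.

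Echs1, the short-chain enoyl-CoA hydratase, averaged 241 ± 37.0 scaled TPM in KO, 215 ± 48.0 in OE and 209 ± 17.2 in Ctrl. It was the steadiest of the 34 genes over all 10 libraries, with a coefficient of variation of 17.1%. Hadh, the hydroxyacyl-CoA dehydrogenase for medium and short chains, averaged 259.7 ± 1.27 in KO, 222 ± 47.3 in OE and 418 ± 314 in Ctrl, where Ctrl 2 was at 774 and no other library was above 301. The thiolase Acaa2 closes the cycle. Acaa2 was at 73.4 and 108 in KO, 26.2, 32.9, 79.5, 35.7 and 36.5 in OE 1 to 5, and 68.2, 96.4 and 49.8 in Ctrl 1 to 3. Of the OE libraries 4 were below all KO and Ctrl libraries, and OE 3 was not. The log2 difference of OE was -1.17 from KO (-2.08 to -0.26, adjusted p = 1) and -0.81 from Ctrl (-1.60 to -0.01, adjusted p = 0.755), the second being -0.57 without Ctrl 2 and -0.30 on TPM as deposited, within a range of -1.33 to -0.30 over the alternatives tried.

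Hadha and Hadhb encode the alpha and beta subunits of the mitochondrial trifunctional protein, which handles long chains. Hadha was at 301 and 149.9 scaled TPM in KO, 238, 214, 144, 206 and 301 in OE 1 to 5, and 249, 353 and 285 in Ctrl 1 to 3. Hadhb was at 42.7 and 86.3 in KO, 51.7, 49.4, 49.3, 52.3 and 59.8 in OE 1 to 5, and 77.8, 81.7 and 67.3 in Ctrl 1 to 3. All 5 OE libraries were below all 3 Ctrl libraries for Hadhb, with a log2 difference of -0.52 (-1.04 to 0.01, adjusted p = 0.755) that shrank to -0.02 on TPM as deposited. The 2 KO libraries went opposite ways, with Hadha high and Hadhb low in KO 1 and the reverse in KO 2, so the ratio of Hadha to Hadhb was 7.05 and 1.74 in KO 1 and 2, against 2.92 to 5.02 in OE and 3.19 to 4.32 in Ctrl. Hadhb values are uncertain, because 61.5% of the 50-base stretches of its transcript also lie in the processed pseudogene Gm13910, which was at 33.1 and 0 scaled TPM in KO 1 and 2. With Gm13910 added to Hadhb the ratio was 3.97 and 1.74 in KO 1 and 2, 2.36 to 3.94 in OE and 2.79 to 3.18 in Ctrl. The summed level was then 61.1 to 76.3 in OE and 87.4 to 126 in Ctrl, again without overlap, and 75.9 and 86.3 in KO.

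Etfa and Etfb form the electron transfer flavoprotein that takes electrons from the dehydrogenases, and Etfdh passes them on to ubiquinone. Etfa was at 164 and 167 scaled TPM in KO, 210.4, 158, 94.9, 101 and 169 in OE 1 to 5, and 135, 123 and 158 in Ctrl 1 to 3. Both KO libraries were above the 3 Ctrl libraries, the only one of the 34 genes for which this held on scaled TPM (9.09% of all genes), and OE spanned both groups. Etfb was at 73.8 and 63.0 in KO, 125, 52.8, 76.0, 39.9 and 67.7 in OE 1 to 5, and 45.5, 93.1 and 56.7 in Ctrl 1 to 3, with overlap throughout. Etfb shares 67.3% of its 50-base stretches with Gm45233, which was not analysed here, so its level is uncertain. Etfdh averaged 31.4 ± 5.93 in KO, 27.4 ± 1.91 in OE and 36.2 ± 8.04 in Ctrl.

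Unsaturated chains need auxiliary enzymes. Decr1 (mitochondrial) and Decr2 (peroxisomal) are 2,4-dienoyl-CoA reductases. Decr2 was at 23.7 and 9.65 scaled TPM in KO, 10.4, 12.4, 14.4, 14.3 and 15.8 in OE 1 to 5, and 27.1, 31.1 and 29.1 in Ctrl 1 to 3. All OE and KO libraries were below all Ctrl libraries on this scale, but KO 1 came close to Ctrl 1. On TPM as deposited both groups overlapped Ctrl, as Ctrl 2 (9.17) was below both KO libraries and every OE library except OE 1 (8.63). There the log2 difference of OE from Ctrl was -0.59. Decr2 had the smallest p of the 34 genes in OE against Ctrl, with 13.4 ± 2.08 in OE and 29.1 ± 2.01 in Ctrl and a log2 difference of -1.07 (-1.68 to -0.46, unadjusted p = 0.00284, adjusted p = 0.755). Without Ctrl 2 it was -1.02, and over the alternatives tried -1.18 to -0.59, with adjusted p between 0.4 and 1. For KO against Ctrl it was -0.89 (-1.65 to -0.13, adjusted p = 0.943), and it was -0.28 without KO 2 and -1.5 without KO 1.

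Decr1 was at 14.7 and 14.5 scaled TPM in KO, 17.1, 16.4, 16.5, 17.5 and 12.0 in OE 1 to 5, and 12.2, 22.1 and 14.9 in Ctrl 1 to 3, and its groups overlapped. The ratio of Decr2 to Decr1 within a library was 1.61 and 0.666 in KO, 0.606, 0.757, 0.868, 0.815 and 1.32 in OE 1 to 5, and 2.23, 1.41 and 1.95 in Ctrl 1 to 3. All 5 OE ratios were below all 3 Ctrl ratios, though OE 5 was close to Ctrl 2. The log2 difference of OE from Ctrl was -1.12, with an exact two-sided permutation p of 0.0179, the smallest that 5 against 3 libraries allow, and 0.333 after adjustment over the 21 tests. For KO against Ctrl it was -0.82 with overlapping groups and an exact p of 0.3 (0.875 after adjustment).

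Eci1 and Eci2 encode enoyl-CoA isomerases that shift a double bond, Eci2 being found in both mitochondria and peroxisomes. Eci2 was at 35.1 and 25 scaled TPM in KO, 21.6, 26.1, 22.4, 27.5 and 29.0 in OE 1 to 5, and 30.3, 63.6 and 42.1 in Ctrl 1 to 3. All 5 OE libraries were below all 3 Ctrl libraries, OE 5 being close to Ctrl 1, with a log2 difference of -0.76 (-1.33 to -0.19, adjusted p = 0.755) that was -0.49 without Ctrl 2. On TPM as deposited it was -0.26 and the groups overlapped. Eci1 showed no such gap, at 14.1 ± 3.01 in KO, 13.3 ± 3.06 in OE and 13.3 ± 4.95 in Ctrl. Pecr, a peroxisomal enoyl-CoA reductase, was low throughout, at 2.16 ± 0.632 in KO, 3.92 ± 2.21 in OE and 4.74 ± 3.13 in Ctrl.

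**Figure D2:**
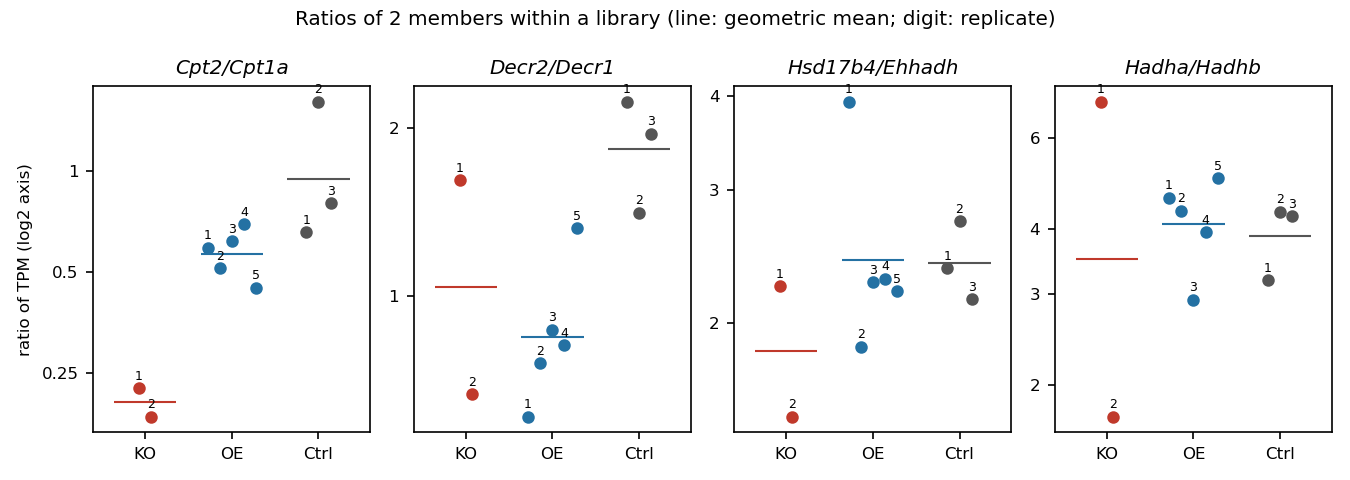
Ratio of the TPM of 2 genes within each library on a log2 axis, with KO, OE and Ctrl from left to right, lines at geometric means and the replicate number above each point. The 2 KO ratios of Cpt2 to Cpt1a (0.225 and 0.185) lie below all others, and all 5 OE ratios of Decr2 to Decr1 (0.606 to 1.32) lie below the 3 Ctrl ratios (1.41 to 2.23).

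Counted over the 34 genes, KO lay wholly below Ctrl for 5 (Cpt2, Decr2, Acsl1, Phyh and Pecr) and wholly above for 1 on scaled TPM, where 7.27% of all genes lay below and 9.09% above. On TPM as deposited the counts were 4 below (Cpt2, Acsl1, Phyh and Acsl5), beside 1.47% of all genes, and 4 above (Pex11a, Acaa2, Acadvl and Acadm), beside 8.44%. Cpt2, Acsl1 and Phyh were below Ctrl in both. OE lay wholly below Ctrl for 3 (Decr2, Eci2 and Hadhb) and above for 0 on scaled TPM, where 1.52% of all genes lay below and 2.21% above, and for 0 either way on TPM as deposited, beside 0.237% below and 1.78% above. OE lay wholly above KO for Cpt2 and wholly below for Cpt1a on scaled TPM, where 4.04% of all genes lay above and 4.43% below. On TPM as deposited it was below KO for 3 genes (Acadvl, Acadm and Abcd3), beside 3.63%, and above for 0, beside 3.09%.

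**Figure D3:**
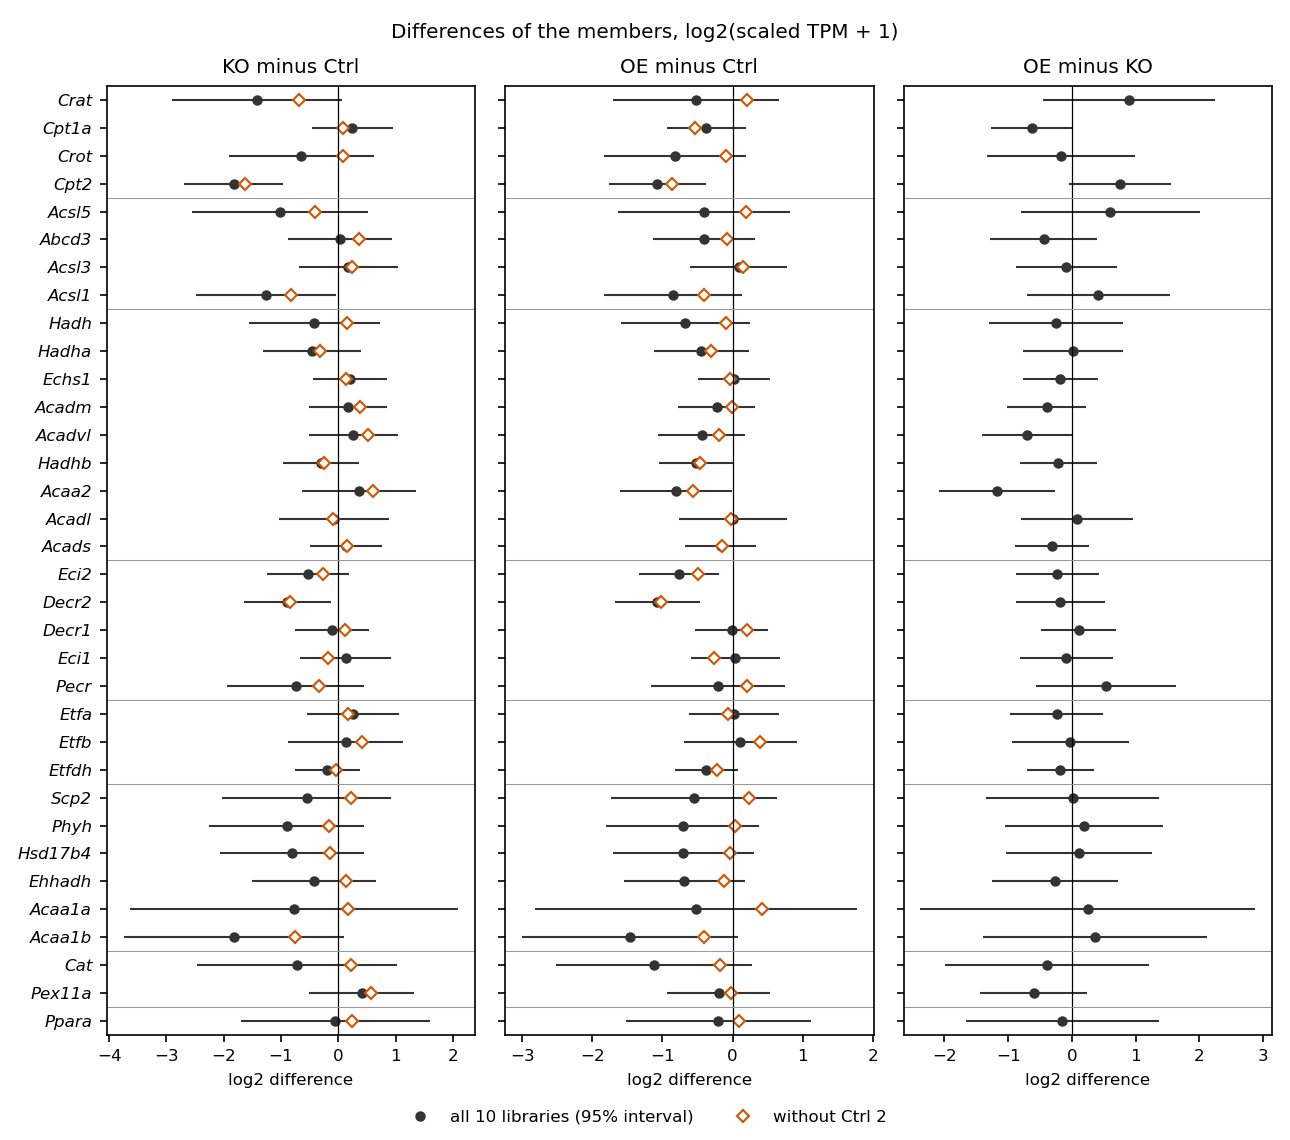
Log2 differences of the 34 genes for KO minus Ctrl, OE minus Ctrl and OE minus KO, with the limma estimate and its 95% interval over all 10 libraries (filled points) and the estimate without Ctrl 2 (open diamonds). The diamonds are drawn only for the 2 comparisons with Ctrl, where those of Crot, Cat, Phyh and Hsd17b4 lie nearer to 0 than the filled points, while that of Cpt2 in KO minus Ctrl stays at -1.62, and none of the 34 genes passed the adjusted threshold.

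The median difference of the peroxisomal genes from Ctrl rested on Ctrl 2, although that of Decr2 did not. Their median log2 difference over 12 genes was -0.74 in KO against Ctrl, -0.69 in OE against Ctrl and -0.08 in OE against KO, beside 0.13, -0.30 and -0.20 for the 16 mitochondrial genes in the same order. Without Ctrl 2 the peroxisomal median was 0.12 in KO against Ctrl and -0.06 in OE against Ctrl, and the mitochondrial median 0.12 and -0.17. Ctrl 2 was the highest library on scaled TPM for 11 of the 12 peroxisomal genes, 7 of the 16 mitochondrial genes and 4 of the 6 genes of other or several compartments, and for 3071 of the 13056 genes tested (23.5%). The level in Ctrl 2 over the median of the other 9 libraries had a median of 4.42-fold over the 11 peroxisomal genes with a median above 0, against 1.48-fold over the mitochondrial genes, 3.04-fold over the 6 others and 0.901-fold over all genes tested. On TPM as deposited Ctrl 2 was the lowest library for 16 of the 34 genes and the highest for 2, Cat and Acaa1b, both peroxisomal. The share over all genes was not counted on that scale, so these counts have no background beside them. Set against the TPM sum of the mitochondrial genes of the same library, which needs no scaling between libraries, Ctrl 2 was highest for 7 of the 12 peroxisomal genes, 1 of the 16 mitochondrial genes and 3 of the 6 others. The 16 mitochondrial genes make up that sum, so they cannot all be high against it, and their count is not comparable with the other counts. Hadh alone made up 36.7% of the sum in Ctrl 2, against at most 21.9% elsewhere. The share over all genes was not counted for this measure.

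Catalase, encoded by Cat, breaks down the hydrogen peroxide of the peroxisomal cycle. Cat was at 46.1 and 44.3 scaled TPM in KO, 49.4, 31.4, 50.7, 28.0 and 21.1 in OE 1 to 5, and 61.3, 279 and 24.5 in Ctrl 1 to 3. KO lay within the range of both other groups. Its log2 difference of OE from Ctrl was -1.12 with all libraries and -0.18 without Ctrl 2. Pex11a, which acts in the growth and division of peroxisomes, did not follow Cat, at 13.0 and 19.9 in KO, 12.1, 7.34, 19.7, 8.21 and 7.74 in OE 1 to 5, and 10.1, 15.4 and 10.8 in Ctrl 1 to 3. It was the 1 peroxisomal gene that was not highest in Ctrl 2 on scaled TPM, and it was not on the other 2 scales either. Its log2 difference of OE from KO was -0.60 (-1.44 to 0.24, adjusted p = 1) and -0.31 without KO 2.

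Ehhadh and Hsd17b4 encode 2 bifunctional enzymes that each carry out the middle steps of the peroxisomal cycle. Ehhadh was at 12.5 and 15.8 scaled TPM in KO, 10.0, 12.8, 15.8, 8.2 and 12.1 in OE 1 to 5, and 13.3, 43.3 and 12.0 in Ctrl 1 to 3. Hsd17b4 was at 27.9 and 23.7 in KO, 39.5, 23.9, 35.7, 18.8 and 26.7 in OE 1 to 5, and 31.5, 118 and 25.8 in Ctrl 1 to 3. The 2 genes kept to their own proportion in the library where both were high: the ratio of Hsd17b4 to Ehhadh was 2.24 and 1.5 in KO 1 and 2, 1.86 to 3.93 in OE, and 2.37, 2.73 and 2.15 in Ctrl 1 to 3.

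Acaa1a and Acaa1b encode peroxisomal thiolases so alike that 34% of the 50-base stretches of Acaa1a lie in Acaa1b, so both are uncertain. Acaa1b was listed at 0 in both KO libraries, at 0.436, 0.819 and 0.334 scaled TPM in OE 1, 2 and 3, at 0 in OE 4 and OE 5, and at 1.88, 14.4 and 0 in Ctrl 1 to 3. Its log2 difference from Ctrl on the log2(scaled TPM + 1) scale was -1.82 in KO (-3.75 to 0.10, adjusted p = 0.943), and -0.76 without Ctrl 2. Acaa1a was at 6.50 and 2.76 in KO, 23.9, 0, 7.0, 2.01 and 15.8 in OE 1 to 5, and 3.11, 32.4 and 4.41 in Ctrl 1 to 3. Acaa1a was the more abundant of the pair except in OE 2, and its opposite-strand neighbour Myd88 had a like level (mean 7.21 against 7.79 TPM).

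Scp2 (sterol carrier protein and thiolase for branched chains) and Phyh (phytanoyl-CoA hydroxylase, which opens the alpha-oxidation of phytanic acid) were the most abundant enzymes of the peroxisomal cycle measured here. Phyh was at 87.9 and 89.7 scaled TPM in KO, 176, 92.4, 88.4, 81.7 and 91.0 in OE 1 to 5, and 103, 469 and 96.1 in Ctrl 1 to 3. Apart from OE 1 and Ctrl 2, its 8 libraries lay between 81.7 and 103. Scp2 was at 109 and 114 in KO, 216, 94.1, 116, 80.5 and 93.0 in OE 1 to 5, and 112, 483 and 81.2 in Ctrl 1 to 3. Scp2 is uncertain, since 41.4% of its 50-base stretches lie in Scp2-ps2, a transcribed pseudogene that was itself at 99.9 to 564 scaled TPM.

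Summed over genes, the peroxisomal share of the TPM of peroxisomal plus mitochondrial genes was 22.8% and 25.6% in KO 1 and 2, 32.6%, 23.1%, 29.5%, 24.5% and 20.6% in OE 1 to 5, and 27.0%, 45.4% and 21.3% in Ctrl 1 to 3. It averaged 24.2% ± 2.02 in KO (SD, n = 2), 26.1% ± 4.90 in OE (n = 5) and 31.2% ± 12.6 in Ctrl (n = 3), and 24.1% over Ctrl 1 and 3. A share within a library does not depend on scaling between libraries. Ctrl 2 stayed the highest and OE 1 the second when Scp2 was left out (37.6% and 24.8%) and when Scp2-ps2 was added to it (52.4% and 39.2%). With Scp2, Phyh and Cat all left out, Ctrl 2 was at 19.9% and the other 9 libraries between 10.3% and 16.4%, where OE 3 (16.4%) and Ctrl 1 (14.5%) were above OE 1 (14.4%).

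Ctrl 2, OE 1, OE 3 and Ctrl 1, the highest in share over all 12 genes, were also the highest for enterocyte markers. The mean of 20 enterocyte genes, in log2(scaled TPM + 1), was 9.24 in Ctrl 2, then 7.45 in OE 1, 7.05 in Ctrl 1 and 7.04 in OE 3, and 5.13 to 6.69 in the remaining 6. Among those 6 the orders differed. OE 5, at 6.69, had the lowest share of all (20.6%), and OE 4, at 5.13, had a share of 24.5%. The mean of 12 Paneth cell genes was 3.44 in Ctrl 2 and 6.35 or more in the other 9 libraries, and that of 12 crypt progenitor genes was 2.72 in Ctrl 2 and 3.84 or more elsewhere. All 20 enterocyte genes had a log2 difference below 0 in KO against Ctrl (median -0.90) and in OE against Ctrl (median -0.62), with 0 passing the threshold. Without Ctrl 2 the medians were -0.16 in KO against Ctrl, with 14 genes below 0, and 0.12 in OE against Ctrl, with 5 below 0. The part of enterocyte content in the levels of the peroxisomal genes was not tested.

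**Figure D4:**
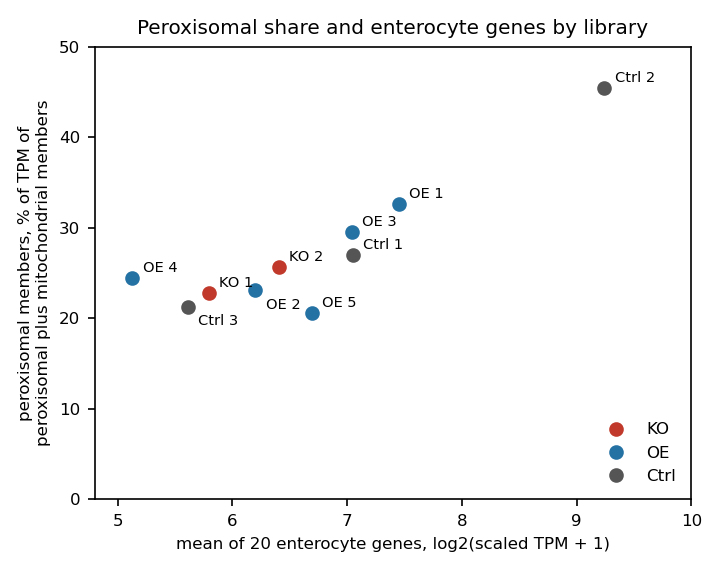
Peroxisomal share of the TPM of peroxisomal plus mitochondrial genes (percent) against the mean of 20 enterocyte genes in log2(scaled TPM + 1), 1 point per library, coloured by KO, OE and Ctrl. Ctrl 2 lies apart at 45.4% and 9.24, OE 1 is next at 32.6% and 7.45, and the KO libraries lie among the other OE and Ctrl libraries.

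Ppara itself, the receptor that many of these genes answer to, showed no group pattern. It was at 13.8 and 13.9 scaled TPM in KO, 9.24, 20.2, 15.8, 30.5 and 2.71 in OE 1 to 5, and 14.4, 22.0 and 9.26 in Ctrl 1 to 3. OE spanned the whole range and the log2 difference of KO from Ctrl was -0.05. Ctrl 2, first in peroxisomal share when all 12 genes are summed, was at 22.0, and OE 1, second in share, was at 9.24. On TPM as deposited Ctrl 2 was at 6.48 and OE 1 at 7.68. The part of Ppara in the levels of the peroxisomal genes was not tested.

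Other genes of the same pathways, from lists of related genes, gave 0 calls in either direction in all 3 comparisons. Of 36 related fatty acid oxidation genes 34 were tested, with median log2 differences of 0.06 in KO against Ctrl, 0.03 in OE against Ctrl and -0.05 in OE against KO. Acad11, another acyl-CoA dehydrogenase, was at 19.9 and 11.3 scaled TPM in KO, 15.3, 17.8, 19.6, 20.5 and 10.4 in OE 1 to 5, and 24.1, 82.5 and 23.2 in Ctrl 1 to 3. All KO and OE libraries were below all Ctrl libraries. This held on TPM as deposited only by a very narrow gap, with OE 4 and KO 1 almost level with Ctrl 2. The log2 differences were -1.20 for KO against Ctrl (adjusted p = 0.943) and -1.10 for OE against Ctrl (adjusted p = 0.755). Without Ctrl 2 they were -0.62 and -0.51. Acad12, a related dehydrogenase, averaged 4.32 in OE and 8.93 in Ctrl (log2 difference -0.83, or -0.46 without Ctrl 2), and Gcdh, glutaryl-CoA dehydrogenase of lysine breakdown, averaged 12.2 in OE and 6.81 in Ctrl (adjusted p = 0.755 for both).

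Of 46 related peroxisome genes 42 were tested, with medians of -0.11, -0.22 and 0.02 in the same order of comparisons. Acot4, a peroxisomal acyl-CoA thioesterase, averaged 28.3 in KO, 13.8 in OE and 27.5 in Ctrl. Lonp2, the peroxisomal Lon protease, averaged 12.7 in KO and 22.0 in Ctrl (log2 difference -0.71, or -0.47 without Ctrl 2), and Acox3, an oxidase of branched chains, 16.6 in KO and 24.1 in Ctrl. Of 25 genes of PPAR regulation and PPAR targets 20 were tested, with medians of -0.31, -0.28 and 0.12 in the same order. Without Ctrl 2 the medians against Ctrl were 0.03 in KO and -0.03 in OE for the peroxisome genes, -0.09 and -0.03 for the PPAR genes, and -0.04 and -0.19 for the fatty acid oxidation genes. Cd36, a fatty acid transporter, was at 88.9 in Ctrl 2 and at most 4.38 in the other 9 libraries. Fabp1, a fatty acid binding protein that is also 1 of the 20 enterocyte genes, was at 2.49 and 3.23 in KO, 12.3, 11.2, 24.1, 7.22 and 17.8 in OE 1 to 5, and 10.6, 772 and 2.32 in Ctrl 1 to 3. Rxrb, a partner of the PPARs, averaged 10.1 in OE and 7.04 in KO. The adjusted p of these 6 genes was 0.755 or more in each comparison.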

How the data were processed

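Total RNA of ileal crypts was measured in 10 libraries, grouped by their titles as 2 KO, 5 OE and 3 Ctrl. The deposited values are TPM per Ensembl gene ID, per the file headers of 9 libraries; the Ctrl 1 header names no unit, and its values fit the others. The submitters' processing notes name TopHat, Cufflinks and the build mm10 but no version or role. Which tool made the TPM, with which annotation and strand setting, is not given in the sources used here. Symbols came by ID from GENCODE M21 for 27458 of 28987 IDs.

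TPM were divided by median-ratio factors over 11146 genes above 0 in every library. limma 3.58.1 (R 4.3.3), with an intensity trend and 3 group means on log2(scaled TPM + 1), tested the 13056 genes that reached 1 TPM in 2 or more libraries. P-values were adjusted over all of them by Benjamini-Hochberg, with a threshold of 0.05. This scale understates changes of low genes. The fit was checked on simulated data with normal noise, where no library stands apart as Ctrl 2 does. That check does not tell how large a change would be called in these libraries. Ratios of 2 genes within a library were compared by exact two-sided permutation tests. Promoters are RefSeq windows of GRCm38.p6, and shared 50-base stretches were counted between GENCODE transcripts.

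The 34 genes, the related and marker lists and the pairs were chosen with earlier results of these data known. Values in every library are given for genes chosen by role and for the 5 with the smallest p in each comparison. Those 5 also have an interval and adjusted p, and of each related list 3 genes with the smallest p are named. Acsl3, Hadh, Phyh, Scp2 and other genes have values beyond that rule. Alternatives were 3 other scalings, pseudocounts of 0.1 and 5, other filters and variance models, the replicate number as a block, and leaving out libraries. The sums with near-identical copies, the shares without single genes, the list medians and related genes without Ctrl 2 and the ratio tests without both Ctrl 2 and OE 1 were added after seeing the data.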

Additional observations from a re-analysis of the deposited data

Results flagged for a closer look

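Among 43 values checked over the 5 OE libraries, 8 had 1 library farther from the others than Dixon's 95% limit (a gap of more than 0.71 of the whole range). Chance flags about 1 in 20. OE 1 was the library set apart for 4 of the 8: Scp2 was at 215.8 scaled TPM against at most 116 in the other 4, Phyh at 175.6 against at most 92.4, Acadm at 79.29 against at most 57.0, and the ratio of Hsd17b4 to Ehhadh at 3.93 against at most 2.29. OE 3 was set apart for Acaa2, at 79.46 scaled TPM against at most 36.5. OE 5 was set apart for Hadhb, at 59.82 against at most 52.3, and for Decr1, at 11.95 against at least 16.4. OE 2 was set apart for Acads, at 19.14 against at least 28.3. OE 1 also had the highest enterocyte mean of the OE libraries, 7.45, and the lowest Stat5a and Stat5b of them, and the part of either in these values was not tested. KO and Ctrl, with 2 and 3 libraries, were not checked in this way, so these flags do not cover Ctrl 2.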

How the results depend on the processing

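None of the 34 genes passed in any alternative run. Over all genes, 0 were called in each comparison, and at an unadjusted p under 0.05 there were 452 in KO against Ctrl, 797 in OE against Ctrl and 385 in OE against KO. With no filter 5 genes were called for KO against Ctrl and 7 for OE against KO. With only the groups compared 1 was called in KO against Ctrl and 1 in OE against Ctrl. Without OE 3, OE 4 and Ctrl 3 there was 1 in OE against Ctrl and 1 in OE against KO. Without OE 1 and Ctrl 2 1 was called for OE against KO. Leaving out 1 library at a time gave 0 to 2 calls in KO against Ctrl, 0 to 1 in OE against Ctrl and 0 to 2 in OE against KO, both maxima of 2 being without KO 1.

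The median difference of the 34 genes for KO against Ctrl was -0.50 to 0.10 when 1 library was left out, the high end being without Ctrl 2, and 0.10 without both OE 1 and Ctrl 2. On TPM as deposited it was 0.17, and 0.067 for OE against Ctrl. Weighting libraries by their spread gave -0.02 and -0.18 for these 2 comparisons. The differences of the genes named by p and of 3 ratios kept their sign and their side of the threshold in all 386 recomputed values. Several alternatives could not move an estimate, among them other filters, a robust variance model and leaving out a library of the third group. Those repeats say nothing about its sign. The ratio tests gave 0 passes in all 14 of their alternatives.

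With the replicate number as a block, 3 genes were called for OE against Ctrl, and the medians of the 34 genes were -0.43 in KO against Ctrl, -0.36 in OE against Ctrl and -0.03 in OE against KO. Whether the numbers pair the samples is not known. Deviations from the group means correlated by -0.177 to 0.063 between same-numbered libraries and by -0.216 to 0.227 between the others. This check cannot settle it, since the deviations of the 2 KO libraries mirror each other. Depth is unknown for these values, and a low gene listed at 0, such as Acaa1b, may be unmeasured rather than absent. The KO group has 2 libraries, which limits every comparison with it.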
